A study of Solanum tuberosum with 6 samples.

Results

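Flavonoid synthesis in potato leaves is described here through 4 gene copies, out of 114281 genes in the count table. The copies are CHS (Soltu.Atl.05_2G019620), F3H (Soltu.Atl.02_2G022190), DFR (Soltu.Atl.02_1G021490) and CYP81E (Soltu.Atl.04_1G016340). They were selected on the measured cold response of the cultivars Atlantic and KY140, since the study labels them with these enzyme names among genes that it lists as changed by cold in at least 1 of those cultivars. The response in those 2 cultivars is therefore given as a description without a test. The cultivar KY130, which the study does not describe, had no part in that list of the study, and its cold response was tested. The 4 genes were taken up here with earlier results of these data known, so the test was not blind to the data. The identifiers come from a gene annotation of Atlantic that keeps the chromosome copies of the tetraploid genome apart. None of the 4 could be matched to the RefSeq gene table of potato (0 identifiers matched), so the enzyme names are those of the study and were not checked here, and no position or sequence is printed.

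The plants were virus-free tissue culture seedlings grown on MS medium for 18 days with 16 h of light per day, and all carried the genotype entry WT. Leaves were collected from untreated plants at 25°C (Atlantic, KY130 and KY140) and, under the names CS-Atlantic, CS-KY130 and CS-KY140, from plants exposed to −4°C for 12 h, with 3 libraries in each of the 6 groups. The sample titles give −4°C, while the treatment field of the treated groups reads 12°C, and the temperature of the titles and the paper is used here. In the study, Atlantic stands for a cold-resistant and KY140 for a cold-sensitive cultivar. The paper describes 3 biological replicates per group. Whether each replicate had a cold exposure of its own is not stated, so the p-values measure the spread between these libraries, which may be smaller than that between exposures. Leaf markers could not be looked up without gene names, so the tissue label was not checked.

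Flavonoids arise from the phenylpropanoid pathway, which turns phenylalanine into activated cinnamic acids. Chalcone synthase (CHS) takes such an acid out of the common route and builds the first chalcone of the flavonoid branch. Flavanone 3-hydroxylase (F3H) then makes dihydroflavonols, the shared precursors of flavonols and anthocyanins, and dihydroflavonol 4-reductase (DFR) commits them to anthocyanins and related pigments. CYP81E names a family of cytochrome P450 enzymes known from legumes as isoflavone hydroxylases, and its role in potato is not given in the sources used here. In leaves, flavonoids act as sunscreens and antioxidants, and the genes of the branch are known to respond to light and temperature in many plants.

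Expression levels below are CPM, that is counts scaled to a common library size by TMM over the 18 libraries. They can be compared between libraries for 1 gene, but not between genes, because transcript lengths were not used. Library totals ranged from 11047494 to 14971945 counts. Genes with at least 1 count numbered from 45305 in KY140 replicate 1 to 74628 in CS-Atlantic replicate 2. In KY130 and KY140, several libraries stood apart from their groups. CS-KY130 replicate 3 correlated with untreated KY130 libraries at r = 0.904 to 0.921 across genes, and with its own group at 0.869 to 0.900. It also held 72029 detected genes, against 50417 and 56550 in the other two CS-KY130 libraries. Over 267 genes called higher after cold in both Atlantic and KY140, CS-KY130 replicate 3 nevertheless lay a median of 2.19 on the log2 scale above untreated KY130, near the 2.44 and 2.62 of replicates 1 and 2. CS-KY130 replicate 1, with the fewest detected genes of its group (50417), correlated with that group at 0.859 to 0.869. KY140 replicate 1 correlated with its own group at 0.837 to 0.853, against 0.911 between the other two. KY140 replicate 2 correlated with the CS-KY140 libraries at 0.896 to 0.931, and with its own group at 0.853 to 0.911. The main results of KY130 and KY140 are also given without these libraries. Reads of KY130 and KY140 were counted on copies of Atlantic, so that lower expression and reads assigned to another copy cannot be told apart between cultivars.

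CHS was most abundant in untreated Atlantic leaves. It measured 193, 150 and 179 CPM in the 3 untreated Atlantic libraries, and 46.5, 62.1 and 50.5 CPM in CS-Atlantic. In KY130 the level was 73.1, 77.9 and 65.7 CPM without treatment and 19.5, 31.9 and 77.7 CPM in CS-KY130 replicates 1 to 3. The treated libraries of Atlantic lay below every untreated one, whereas in KY130 only CS replicates 1 and 2 did so and CS replicate 3 lay within the untreated range. KY140 gave 34.2, 44 and 45.5 CPM at 25°C and 66.2, 59.1 and 31.5 CPM after cold, and these groups overlapped. In the order of group means, untreated Atlantic (174 ± 21.9 CPM, SD, n = 3) was followed by untreated KY130 (72.2 ± 6.14), and both were separated from the next group. CS-Atlantic (53.1 ± 8.09), CS-KY140 (52.3 ± 18.3), CS-KY130 (43 ± 30.6) and KY140 (41.2 ± 6.13) followed, each overlapping the next. Untreated KY130 also overlapped CS-KY140 and CS-KY130, whose highest libraries measured 66.2 and 77.7 CPM.

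**Figure D1:**
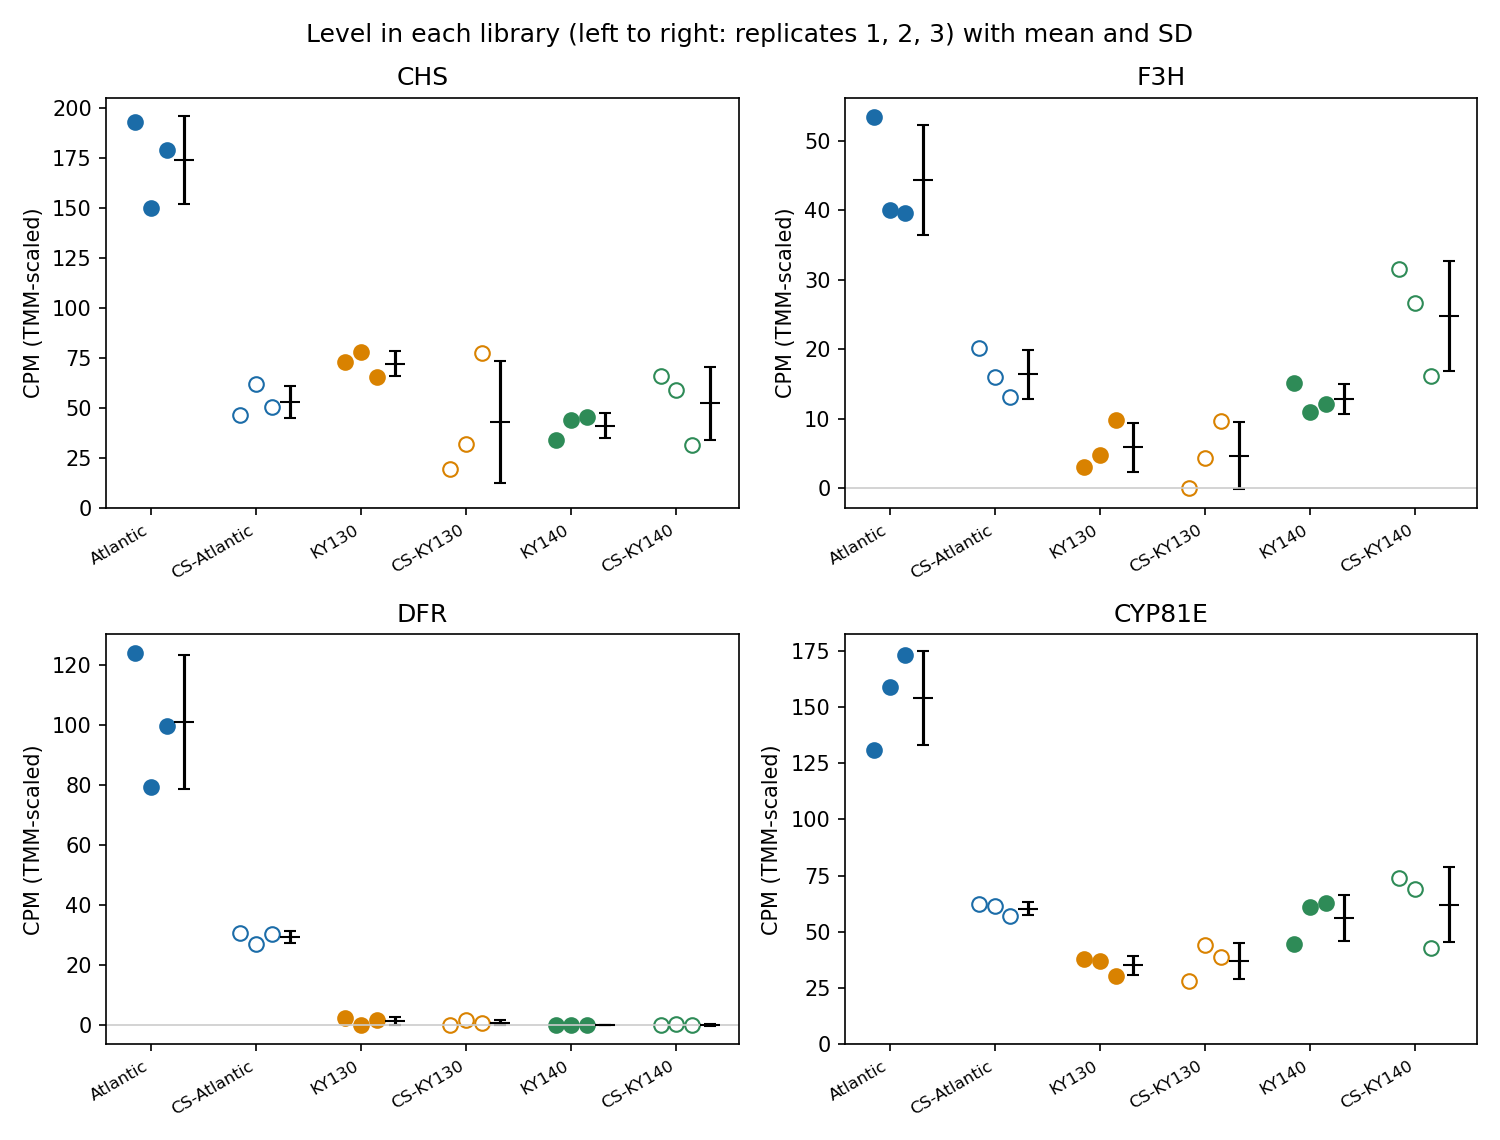
Level of each gene in CPM (y axis, TMM-scaled, each panel on its own scale) in the 3 libraries of the 6 groups (x axis). Filled points are untreated and open points treated libraries, and the bar beside them is the mean with its SD. In untreated Atlantic, CHS lies between 150 and 193 CPM and DFR between 79.2 and 124 CPM, above all other groups.

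F3H had the same leading group. Untreated Atlantic libraries held 53.5, 40 and 39.7 CPM and CS-Atlantic libraries 20.2, 16 and 13.1 CPM, without overlap. F3H was far lower in KY130, at 3.09, 4.79 and 9.85 CPM before and 0, 4.43 and 9.69 CPM after cold. The 0 of CS-KY130 replicate 1 allows up to 0.27 CPM, the value of 3 counts in that library, a limit that covers counting error only. The other two treated KY130 libraries fell inside the untreated range. In KY140, F3H measured 15.2, 11 and 12.1 CPM at 25°C and 31.6, 26.7 and 16.2 CPM after cold. The treated KY140 libraries were higher on this scale, but the highest untreated and the lowest treated library each had 193 counts of F3H. Ordered by mean, untreated Atlantic (44.4 ± 7.87 CPM, SD, n = 3) stood alone, then CS-KY140 (24.8 ± 7.85), CS-Atlantic (16.4 ± 3.56) and KY140 (12.8 ± 2.16) overlapped their neighbours. Both KY130 groups came last (5.91 ± 3.52 untreated, 4.71 ± 4.85 treated), below KY140 without overlap.

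DFR was nearly confined to Atlantic among these 18 libraries. Its level was 124, 79.2 and 99.5 CPM in untreated and 30.8, 27 and 30.5 CPM in treated Atlantic. In KY130 the libraries held 30, 0 and 25 counts at 25°C (2.44, 0 and 1.87 CPM) and 0, 20 and 8 counts after cold (0, 1.85 and 0.686 CPM). A few reads were thus present in 4 of 6 KY130 libraries, with overlapping groups. In KY140 all 3 untreated libraries had 0 counts of DFR, and the treated ones 0, 7 and 0 (0.526 CPM in replicate 2). A count of 0 allows up to 0.267 CPM in the untreated KY140 library with the highest limit. In the order of means, untreated (101 ± 22.2 CPM, SD, n = 3) and treated Atlantic (29.4 ± 2.12) were each separated from the next group, and the 4 groups of KY130 and KY140 overlapped their neighbours.

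CYP81E measured 131, 159 and 173 CPM in untreated Atlantic and 62.2, 61.6 and 57 CPM in CS-Atlantic. KY130 stayed near one level, with 38.1, 37.2 and 30.4 CPM untreated and 28, 43.9 and 38.7 CPM treated. KY140 had 44.4, 61.1 and 62.9 CPM at 25°C and 74.1, 69.2 and 43 CPM after cold. Only in Atlantic were the treated and untreated libraries of this gene separated. By mean, untreated Atlantic (154 ± 21 CPM, SD, n = 3) was followed by CS-KY140 (62.1 ± 16.7), CS-Atlantic (60.3 ± 2.87) and KY140 (56.1 ± 10.2), which overlapped in sequence. CS-KY130 (36.9 ± 8.1) and KY130 (35.2 ± 4.21) lay below the untreated KY140 libraries and overlapped each other. CS-KY140 replicate 3 was the lowest of its group for CHS, F3H and CYP81E alike.

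In Atlantic, where the contrast had a part in choosing the genes, all 4 were lower after 12 h at −4°C. The mean level after cold was 30.5% of the untreated mean for CHS, 37% for F3H, 29.2% for DFR and 39.1% for CYP81E. On the log2 scale the fitted difference was −1.66 (SE 0.20) for CHS, −1.38 (SE 0.25) for F3H, −1.72 (SE 0.22) for DFR and −1.30 (SE 0.18) for CYP81E. The median of the 4 was −1.52, against −0.07 over all genes tested. All 4 genes had every treated library below every untreated one. The same held, in the lower direction, for 16.3% of all genes tested, and 2.31% were called lower by edgeR at a |log2FC| of at least 1 and an adjusted p under 0.05. Since these values belong to the contrast that chose the genes, nothing is read from the counts.

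The cold response of KY130 addressed whether the genes changed in a cultivar that the study did not use to list them. Of the 4 genes, 0 were called in KY130 by edgeR's quasi-likelihood test, and 0 had an unadjusted p under 0.05. DESeq2, which called 4.28% of all genes, also called 0 of the 4. Among all genes tested in KY130, edgeR called 0.928%, with 0.0842% lower, a background against which 0 of 4 says little. CHS had a log2FC of −0.75 (SE 0.46, 95% interval −1.79 to 0.29, edgeR adjusted p = 0.672). For CYP81E the value was 0.06 (SE 0.29, −0.60 to 0.73, edgeR adjusted p = 0.976), an interval that leaves out the fold threshold of the calls. The intervals of F3H (−0.33, SE 1.32, −3.31 to 2.65, edgeR adjusted p = 0.972) and DFR (−0.76, SE 1.99, −5.25 to 3.73, edgeR adjusted p = 0.953) were too wide to leave out a change of several-fold in either direction. The libraries of both temperatures overlapped for each gene, while 10.4% of all genes lay lower and 10.1% higher without overlap. The median of the 4 was −0.54, against −0.07 over all genes tested. That median rested on single libraries, since it was 0.02 without CS-KY130 replicate 1 and −1.07 without CS-KY130 replicate 3.

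**Figure D2:**
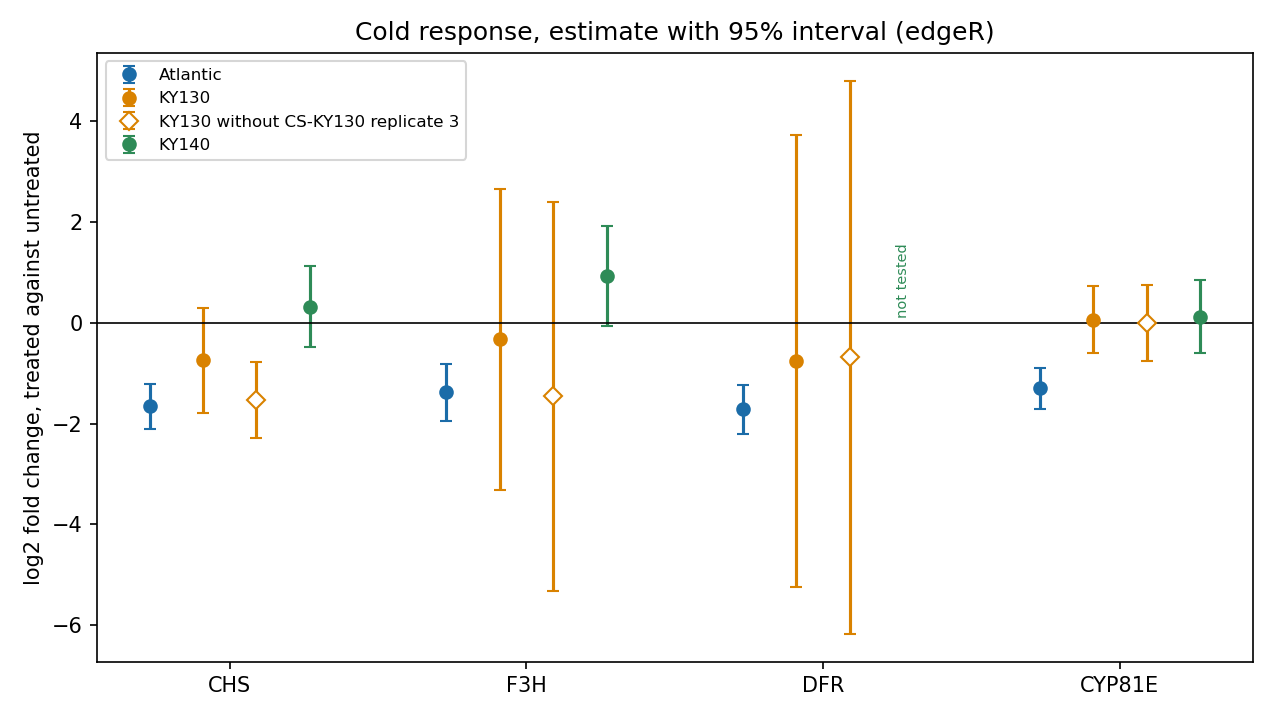
Fitted log2FC of treated against untreated libraries (y axis) for each gene (x axis) in the 3 cultivars, with 95% intervals from edgeR, and in KY130 also without CS-KY130 replicate 3 (open diamonds). CHS moves from −0.75 to −1.53 in KY130 when that library is left out, CYP81E stays at 0.06 and −0.01, and DFR was not tested in KY140.

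CS-KY130 replicate 3, the treated library that correlated best with the untreated ones, carried the highest treated level of CHS and F3H. Without it the log2FC of CHS in KY130 was −1.53 (SE 0.32, 95% interval −2.28 to −0.78), with an unadjusted p of 0.00176 and an adjusted p of 0.097 by edgeR. F3H moved to −1.46 (SE 1.65, −5.32 to 2.40, edgeR adjusted p = 0.734). DFR (−0.69) and CYP81E (−0.01) hardly moved. Still 0 of the 4 genes were called, when 0.717% of all genes were. Leaving out CS-KY130 replicate 1, which correlated with its own group at 0.859 to 0.869, moved CHS and F3H the other way. Without that library the log2FC was −0.39 for CHS and above 0 for F3H. The CHS estimate in KY130, not called in any of these fits, therefore depended on which library was left out. The part of either library's state in the result was not tested.

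**Figure D3:**
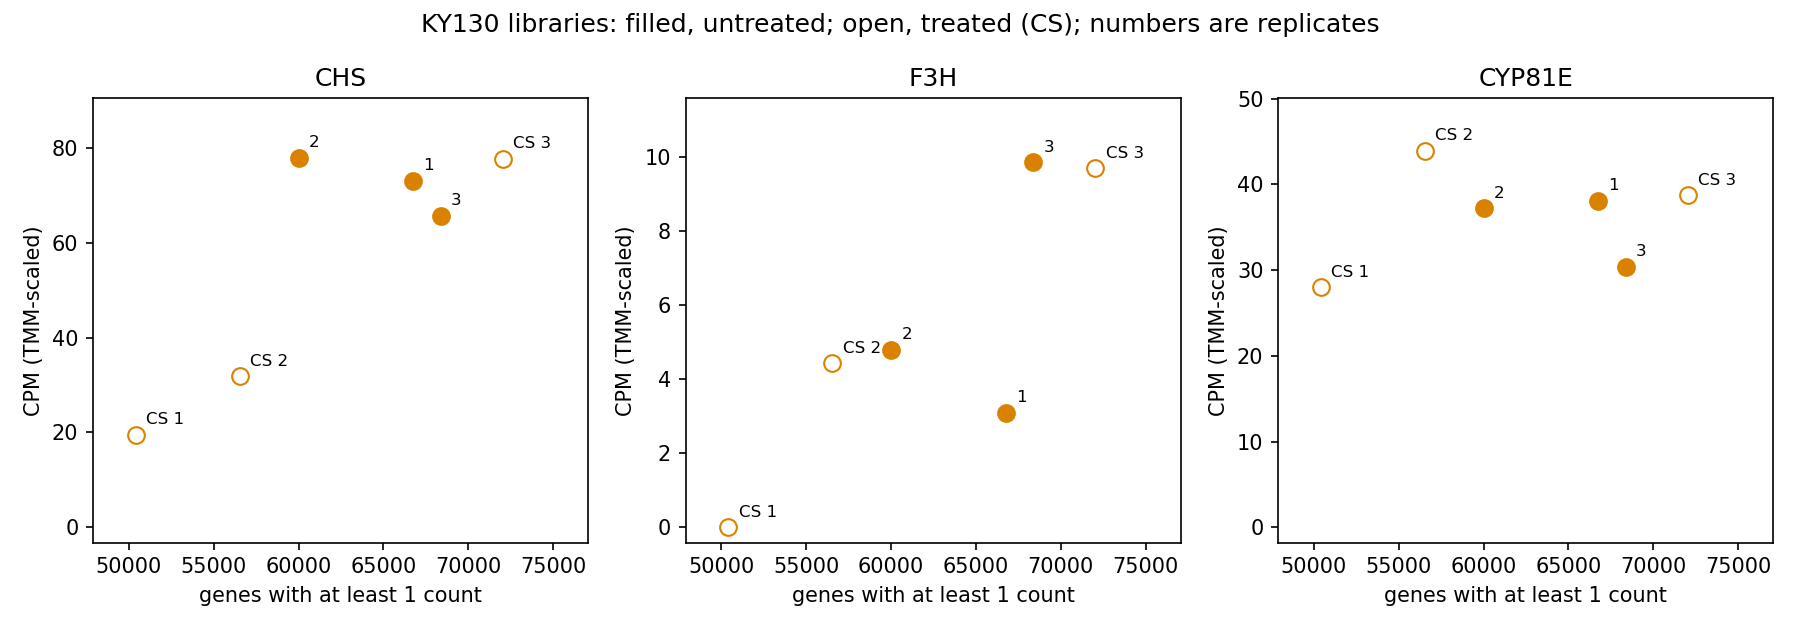
Level in CPM (y axis) of CHS, F3H and CYP81E in the 6 KY130 libraries, set against how many genes had at least 1 count in that library (x axis). Filled points are untreated and open points treated libraries, numbered by replicate. CS replicate 3, with 72029 genes detected, lies with the untreated libraries for CHS (77.7 CPM), apart from CS replicates 1 and 2 (19.5 and 31.9 CPM).

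In KY140, whose cold contrast also had a part in choosing the genes, the 3 genes that passed the filter on low counts had positive estimates. The mean level after cold was 127% of the untreated mean for CHS, 194% for F3H and 111% for CYP81E. The log2FC was 0.32 (SE 0.36, 95% interval −0.49 to 1.13) for CHS, 0.93 (SE 0.44, −0.06 to 1.91) for F3H and 0.12 (SE 0.32, −0.61 to 0.85) for CYP81E. None reached the fold threshold of the calls, which 1.04% of all genes passed together with the FDR. F3H was higher without overlap in CPM, as were 13.3% of all genes. The median of the 3 was 0.32, against 0.07 over all genes tested. DFR did not pass the filter. Without KY140 replicate 1 the estimates were 0.23 for CHS, 1.10 for F3H and 0.01 for CYP81E, and without KY140 replicate 2 they were 0.33, 0.80 and 0.15. Leaving out CS-KY140 replicate 3, the lowest treated library, gave 0.59, 1.17 and 0.34. Leaving out CS-KY140 replicate 1, the highest, gave 0.06, 0.66 and −0.07, so that CYP81E turned sign, and moved the median from 0.32 to 0.06.

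Set side by side, the responses of these genes were negative in Atlantic and near 0 or positive in KY140. The difference of the responses, KY140 minus Atlantic in a fit of 12 libraries, was 1.96 (SE 0.42) for CHS, 2.30 (SE 0.50) for F3H and 1.41 (SE 0.38) for CYP81E on the log2 scale. The corresponding difference KY130 minus Atlantic was 0.99 (SE 0.55) for CHS, 1.13 (SE 1.25) for F3H and 1.44 (SE 0.33) for CYP81E. These differences hold the contrasts that chose the genes and are descriptions without a test. Both use the same Atlantic libraries.

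Levels were then compared between cultivars at one temperature. The comparisons with Atlantic use libraries of the contrasts that chose the genes, and choosing genes that fell in Atlantic favours high untreated and low treated Atlantic values. Their differences and calls are therefore a description, without p-values, and nothing is read from the number of calls. At 25°C all 4 genes passed the call thresholds as lower in KY130 than in Atlantic, as did 19.6% of all genes tested. CHS differed by −1.27 (SE 0.39) and F3H by −2.90 (SE 0.94) on the log2 scale. CHS no longer passed without Atlantic replicate 1 or 3, without any 1 of the KY130 replicates, or with upper quartile scaling (−0.99). F3H no longer passed without any 1 of the Atlantic replicates or KY130 replicate 1 or 2. DFR (−6.11, SE 1.00) and CYP81E (−2.13, SE 0.24) had larger differences relative to their errors. All 4 genes had lower values in every KY130 library than in any Atlantic library, as did 30.7% of all genes.

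The 4 genes also passed as lower in KY140 than in Atlantic at 25°C, as did 24.9% of all genes tested. CHS stood at 23.7% of the Atlantic mean (log2 difference −1.95, SE 0.30). F3H stood at 28.8% (−1.67, SE 0.36) and CYP81E at 36.4% (−1.33, SE 0.27). DFR, with 0 counts in each untreated KY140 library, was at least 378-fold lower, taking 3 counts per library as the limit. It entered this fit only through the Atlantic libraries, where it is high, since it did not pass the filter on low counts in KY140 alone. The log2 differences without KY140 replicate 1 were −1.83 for CHS, −1.81 for F3H and −1.19 for CYP81E, and without KY140 replicate 2 −2.0, −1.58 and −1.40. No library of KY140 overlapped those of Atlantic for any of the genes, which was the case, in the lower direction, for 35.1% of all genes. The median of all genes itself lay below 0 in these contrasts, at −0.16 for KY130 and −0.48 for KY140. Relative to it the difference was −1.11 in KY130 and −1.47 in KY140 for CHS, −2.74 and −1.19 for F3H, and −1.97 and −0.85 for CYP81E.

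**Figure D4:**
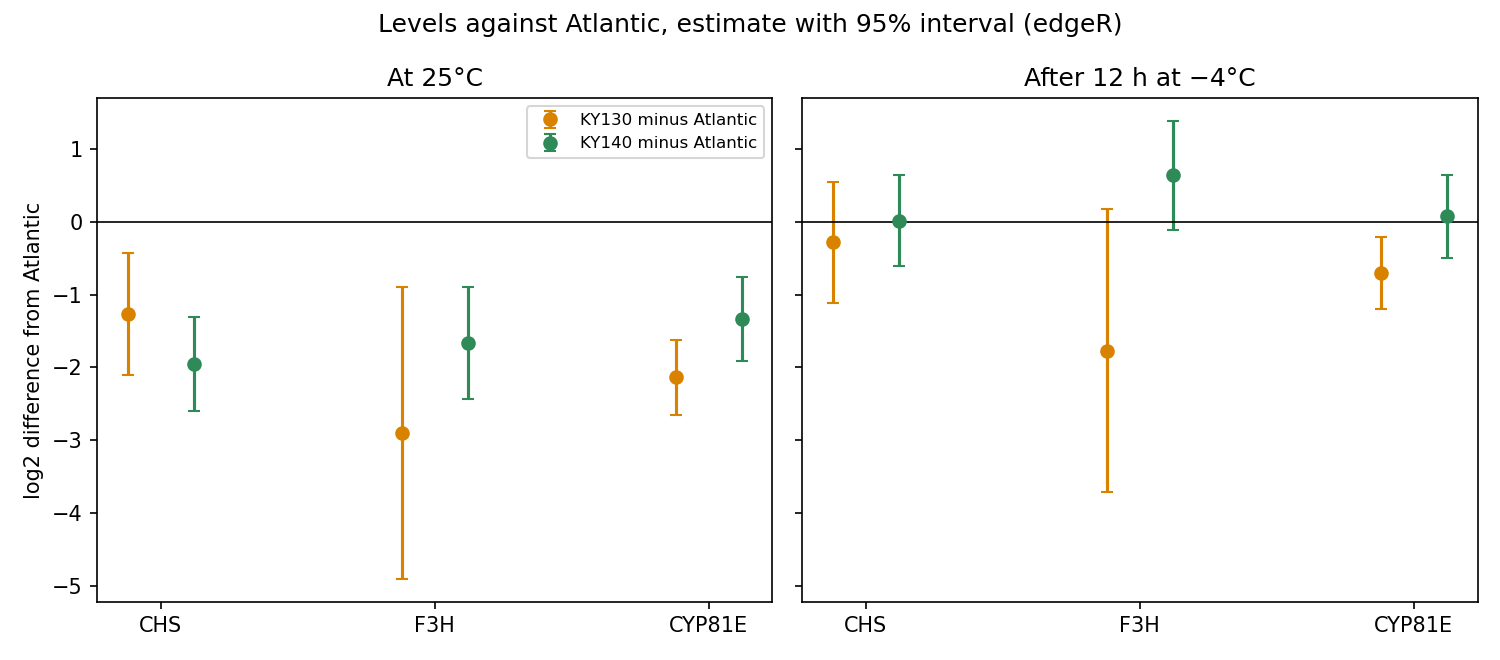
Log2 difference of KY130 and KY140 from Atlantic (y axis) with 95% intervals from edgeR, at 25°C (left) and after cold (right), for CHS, F3H and CYP81E. At 25°C the estimates lie between −2.90 and −1.27, and after cold those of KY140 are 0.02, 0.64 and 0.08, with intervals on both sides of 0.

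After cold the levels of CHS, F3H and CYP81E in KY140 lay nearer to those of Atlantic than at 25°C, by their estimates. This narrowing restates the difference of the cold responses. Choosing genes that fell in Atlantic favours it, so it is a description only. In KY140 against Atlantic 1 of the 4 genes passed as lower, as did 22.1% of all genes. CHS differed by 0.02 (95% interval −0.61 to 0.64), F3H by 0.64 (−0.11 to 1.39) and CYP81E by 0.08 (−0.49 to 0.65). With RLE scaling, which takes the median ratio of genes to a common reference, the sign turned for CHS (−0.26) and CYP81E (−0.19), and neither passed. The median of all genes was −0.28 by TMM and −0.55 by RLE. Relative to it CHS lay at 0.29 by TMM and 0.30 by RLE, and CYP81E at 0.36 by both. The gene that passed was DFR, again through its Atlantic level alone, with 1019 counts over the 3 CS-Atlantic libraries and 7 over the 3 CS-KY140 libraries. Scaled to library size, that is a ratio of 159, with an exact Poisson interval of 76.9 to 397 that covers counting error only.

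KY130 after cold passed as lower than Atlantic after cold for 1 of the 4 genes, and for 20.7% of all genes. This was again DFR (−5.10, SE 0.99). CYP81E was lower by less than the fold threshold (−0.70, 95% interval −1.20 to −0.20). CHS (−0.28, −1.11 to 0.55) and F3H (−1.77, −3.72 to 0.18) did not pass. F3H, DFR and CYP81E lay below Atlantic in every library, as did 29.1% of all genes. Without CS-KY130 replicate 3 the count rose to 3, where 20.1% of all genes passed as lower, with CHS at −1.06 and F3H at −2.89, near their 25°C differences of −1.27 and −2.90. Here too the outcome for CHS and F3H depended on that library. Without CS-KY130 replicate 1 the count stayed at 1, where 13057 of 73384 genes passed as lower.

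Between KY130 and KY140, 0 of the 4 genes were called at 25°C, when 38.8% of all genes were called in either direction. The KY140 libraries here are also those of a cold contrast with a part in choosing the genes. These differences and calls are therefore a description too, without p-values, and nothing is read from the number of calls. CHS differed by 0.72 (95% interval −0.28 to 1.71), F3H by −1.19 (−3.36 to 0.98) and CYP81E by −0.77 (−1.53 to 0.00). After cold 0 were called as well, against 37% of all genes. At that temperature F3H was at −2.51 (−4.76 to −0.25), CYP81E at −0.86 (−1.62 to −0.10) and CHS at −0.39 (−1.38 to 0.60). Before any adjustment for the number of genes tested, the intervals of F3H and CYP81E after cold lay below 0. At 25°C that of CYP81E reached 0.00 and that of DFR lay above 0 (0.85 to 13.36), though the DFR libraries of both cultivars overlapped. F3H was called lower in KY130 after cold by DESeq2 (log2FC −2.38). DESeq2 called 44.8% of all genes in either direction, with 14361 of 64732 lower. F3H was also called by edgeR without CS-KY130 replicate 3 (−3.61), which then called 16.5% lower. Without KY140 replicate 2, 0 of the 4 genes were called at either temperature. DFR was at or near 0 counts in both cultivars, and its fitted differences carry little information.

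The absence of DFR reads in KY140 was shared with other genes. Of 3423 genes with a mean of at least 50 CPM in untreated Atlantic, a minimum chosen after the DFR values were seen, 120 (3.51%) had 0 counts in all 3 untreated KY140 libraries and 82 (2.4%) in all 3 untreated KY130 libraries. DFR was among the 120 but not among the 82. Whether KY140 expresses another DFR copy was not analysed here.

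The wider phenylpropanoid pathway was read from 6 genes whose identifiers stand in the paper's text. They are StPAL (phenylalanine ammonia-lyase, the entry step), 3 copies of StCYP73A (cinnamate hydroxylase), St4CL (coumarate-CoA ligase) and StCSE (caffeoyl shikimate esterase, a lignin step). In KY130 1 of the 6 was called lower and 0 higher by edgeR, which called 0.928% of all genes, and 0.0842% as lower. The median log2FC of the 6 was 0.97, and −0.07 over all genes. The gene called was StCSE (−1.48, SE 0.23, edgeR adjusted p = 0.0215). St4CL had the highest estimate (2.67, SE 0.73, edgeR adjusted p = 0.168). DESeq2, which called 4.28% of all genes, called St4CL (2.68, DESeq2 adjusted p = 0.00751) and StCSE (−1.49, DESeq2 adjusted p = 1.13e-07). StPAL was at 1.28 (SE 0.72, edgeR adjusted p = 0.632). The edgeR call of StCSE was lost when any 1 library other than KY130 replicate 2 was left out (edgeR adjusted p = 0.0524 to 0.144). Without CS-KY130 replicate 3, edgeR called 0 of the 6, with 0.717% of all genes. In Atlantic and KY140, on which the study named these genes, the medians were 2.67 and 1.86, beside −1.52 for the 4 flavonoid genes in Atlantic and 0.32 for 3 of them in KY140.

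**Figure D5:**
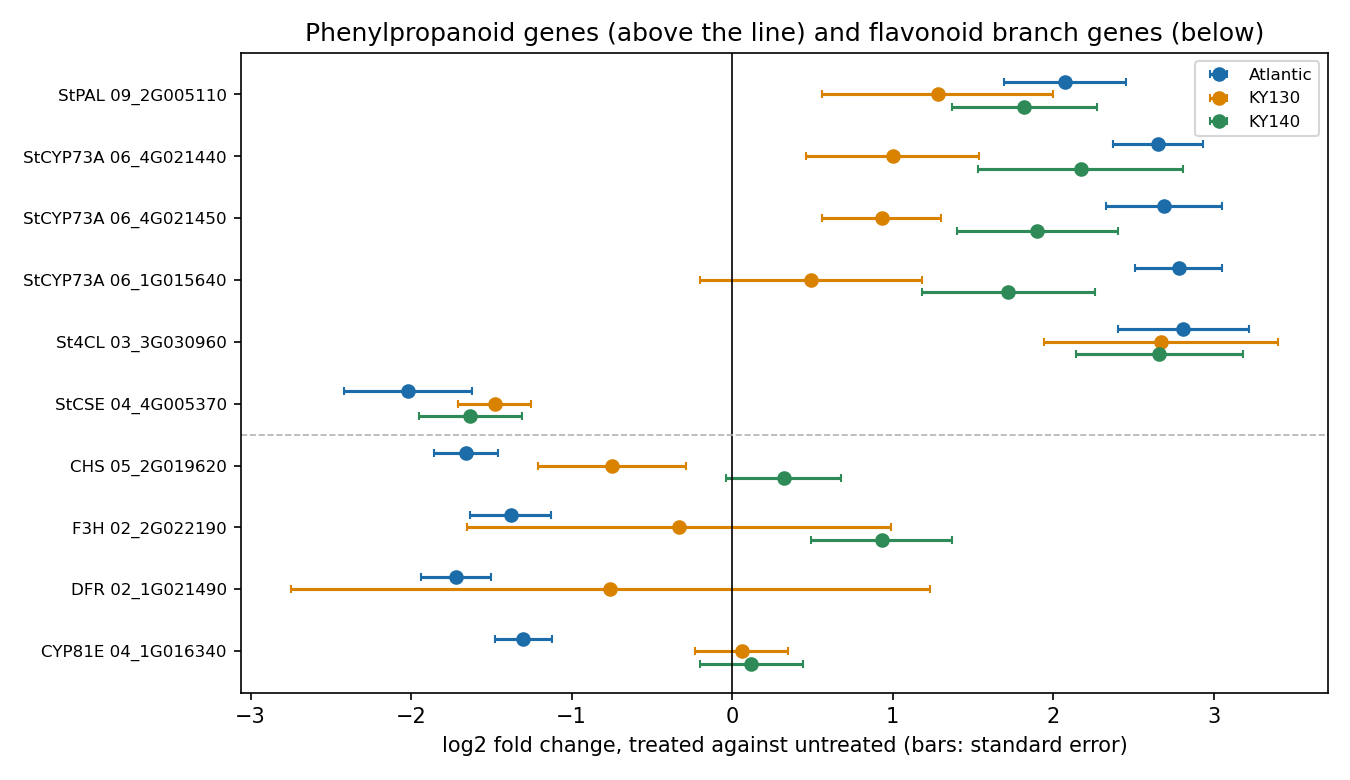
Log2FC of treated against untreated libraries (x axis) with standard errors for the 6 phenylpropanoid genes above the dashed line and the 4 flavonoid genes below it, by cultivar. In Atlantic 5 phenylpropanoid genes lie to the right of 0, while StCSE and the 4 flavonoid genes lie to the left. DFR has no point for KY140.

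Correlations between the 4 genes are given as a description, since the libraries share cultivar and temperature and the genes were chosen on their fall in Atlantic, which fixes high values there. On log2(CPM + 1) over the 18 libraries, Pearson's r was highest between F3H and CYP81E (0.81, Spearman's rho 0.88) and lowest between F3H and DFR (0.54, rho 0.45), and rho was 0.41 for CHS and CYP81E. Within the 6 KY130 libraries r ranged from 0.26 to 0.79 over the 6 pairs, with a rho of −0.06 for CHS and DFR. In the 6 KY140 libraries CHS and CYP81E reached 0.97, and the other 5 pairs 0.38 to 0.68. The KY140 pairs with DFR (0.38 to 0.49) rest on its 7 counts in CS-KY140 replicate 2, the only KY140 library with DFR reads. Among 61782 genes averaging 10 counts or more, the pattern most like DFR was that of a gene with a number in place of an Atlantic identifier (r = 0.989 over 18 libraries), which averaged 19.6 CPM in untreated and 8.99 CPM in treated Atlantic and had a mean of 0 in both KY140 groups. The gene most like CYP81E was Soltu.Atl.09_1G008160 (r = 0.928), that most like F3H was Soltu.Atl.06_0G012020 (r = 0.908) and that most like CHS was Soltu.Atl.02_3G028290 (r = 0.886). By Spearman's rank correlation a different gene came first for all 4, so these likenesses depend on the measure.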

How the data were processed

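Poly(A) leaf RNA was sequenced in 18 libraries. The authors deposited raw, unnormalized read counts of 114281 genes. Each group is 1 sample record with 3 numbered columns, and 0 library columns were left unmatched. Aligner, counter and genome build: not given in the sources used here. The same is true of the handling of reads shared between near-identical gene copies, so the value of each copy is uncertain to that extent. A second deposited table repeats the identifiers and was not used here.

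Counts were tested with the quasi-likelihood test of edgeR 4.0.16 (R 4.3.3, limma 3.58.1) after filterByExpr with a minimum count of 10 and TMM normalization. The cold response was fitted on the 6 libraries of a cultivar and levels on the 12 libraries of a pair of cultivars. Level comparisons are given without p-values, because each holds libraries of Atlantic or KY140, whose cold contrasts had a part in choosing the genes. Genes were called at |log2FC| ≥ 1 with FDR < 0.05 (Benjamini-Hochberg, over all genes tested), the criteria of the paper, which names no tool. The standard error is the size of the log2FC divided by the square root of F, and intervals are at 95%. CPM used TMM library sizes over the 18 libraries, and correlations a pseudocount of 1. Correlations between libraries used CPM scaled by library totals. The biological coefficient of variation was 56.1% in Atlantic, 81% in KY130 and 82.6% in KY140, which limits the precision in KY130 and KY140.

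The named genes are the 4 flavonoid genes, the 6 phenylpropanoid genes named in the paper's text, and for each flavonoid gene the other gene with the highest Pearson r. The members and lists were chosen with earlier results of these data known. The alternatives were DESeq2 1.42.0, RLE and upper quartile factors, other filters on low counts, a joint fit of the 18 libraries, a block for the replicate number, calls without the fold threshold, each library left out, and Spearman's correlation or a lower count minimum for likeness. The fits were tested on simulated counts.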

Additional observations from a re-analysis of the deposited data

How the results depend on the processing

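In KY130, 0 of the 4 genes were called in the cold response under each alternative run. With 1 library left out, the log2FC ranged from −1.53 to −0.39 for CHS, −1.46 to 0.26 for F3H, −2.03 to −0.16 for DFR and −0.08 to 0.23 for CYP81E. The sign of F3H turned without CS-KY130 replicate 1 (0.26) or KY130 replicate 3 (0.24), and that of CYP81E without CS-KY130 replicate 2 (−0.08) or 3 (−0.01) or KY130 replicate 3 (−0.05). The number of the 4 genes called lower in KY130 than in Atlantic ranged from 2 to 4 at 25°C and from 1 to 3 after cold with 1 library left out. With upper quartile factors CHS was no longer called in KY130 against Atlantic at 25°C (−0.99), and the genes called lower there numbered 11965 of 20427, against 13195 of 19241 by TMM. F3H was not called in KY140 against Atlantic at 25°C in the joint fit (−1.80).

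After cold, CHS in KY140 against Atlantic turned sign by DESeq2 and RLE (both −0.26) and in the joint fit (−0.02), and was 0.00 without a filter or with the block. With 1 library left out it reached −0.14 and −0.02 (without CS-Atlantic replicates 1 and 3) and −0.19 and −0.09 (without CS-KY140 replicates 1 and 2), in a range of −0.19 to 0.28. CYP81E turned sign by DESeq2 and RLE (both −0.19) and without CS-KY140 replicate 1 (−0.07) or 2 (−0.01), in a range of −0.07 to 0.29. Between KY130 and KY140, the joint fit called 1 gene at 25°C (DFR). After cold DESeq2, the fit without a filter and the joint fit called 1 each, as did edgeR without CS-KY130 replicate 3. This was F3H in each case, at −2.38, −2.49, −2.40 and −3.61. The causes were not tested.

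Same-numbered libraries of a cultivar correlated in their deviations at −0.074 to 0.19, and no source pairs them. With the replicate number as a block, CHS in KY130 was −1.0 (edgeR adjusted p = 0.52), and F3H −1.36, DFR −1.21 and CYP81E 0.05. The block moved the calls over all genes from 452 to 378 in KY130 and from 501 to 317 in KY140. Calls over all genes numbered 2084 by DESeq2, 1695 without a filter and 716 in the joint fit in KY130. In KY140 they were 2273, 2339 and 1537, and in Atlantic the joint fit called 962, against 4679. In Atlantic that fit passed 2 of the 4 genes as lower, CHS (−1.71) and CYP81E (−1.36), and 216 of 74058 genes. F3H (−1.44) and DFR (−1.78) did not pass there. With 1 library left out, calls over all genes ranged from 134 to 381 in KY130 and from 2715 to 3449 in Atlantic. In KY140 they ranged from 107 to 687, the highest without KY140 replicate 1. For F3H and DFR in KY130, whose libraries include counts of 0, the 95% intervals span several-fold changes in both directions.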
